A study of Mus musculus with 2 samples.

Results

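Regulatory T cells (Treg cells), the CD4 T cells that carry the transcription factor Foxp3, made up 125 of 12018 single cells from mouse 4T1 mammary tumours. A cell was taken as a Treg cell with at least 1 molecule of Foxp3, at least 1 molecule summed over the T cell receptor complex genes Cd3d, Cd3e and Cd3g, and no molecule of the CD8 genes Cd8a and Cd8b1. It also had to hold at most 1 molecule of the macrophage complement genes C1qa and C1qb and a fraction below 0.1 of its molecules from the neutrophil gene S100a8. The members were therefore chosen by measured values, and the levels of these 9 genes and of Cd4, which chose the comparison class, are given as a description only.

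The tumours came from female BALB/c mice of 8 weeks that received 4T1 cells, a mouse mammary carcinoma line, in a mammary fat pad; no engineered allele is named in the labels. At day 7, with tumours of about 70 mm3, mice were split into 4 arms of 6: isotype control antibody, anti-Siglec-E antibody, anti-PD-1 antibody, or both antibodies. From each arm 2 tumours were dissociated, and EPCAM-positive and EPCAM-negative cells were mixed at 1 to 4, so the share of epithelial cells among all cells was set by the experimenters. Each of the 2 samples was 1 cartridge of the BD Rhapsody system, which captures single cells on barcoded beads and counts molecules of a fixed gene panel. Sample tags 1 and 2 marked the isotype control and anti-Siglec-E arms, here the no-anti-PD-1 pool, and tags 3 and 4 marked the anti-PD-1 arm and the arm with both antibodies, here the anti-PD-1 pool. Which tag stood for which arm is not given in the sources used here, so values are given by tag, and the tumours within a tag cannot be told apart. With 1 sample per group there was no replicate, no test was made, and the exact 95% intervals cover counting error only.

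Treg cells restrain other lymphocytes, in part through the receptor CTLA-4 and through IL-2 capture by the high-affinity IL-2 receptor chain CD25, the product of Il2ra. Inside tumours they are known as an activated, suppressive population that bears receptors of the TNF receptor family and chemokine receptors such as CCR8. Activated T cells, Treg cells among them, bear the inhibitory receptor PD-1 (Pdcd1), whereas Siglec-E, a sialic acid binding receptor with inhibitory signalling, is found mainly on myeloid cells.

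Tags 1, 2 and 3 held 2430, 1515 and 6620 of the 12018 cells and tag 4 the others, with a median of 1262 to 1463 molecules per cell over the 396 genes that all 4 tables share. Tag 1 was counted against another target list than tags 2 to 4, and how far this moves its values was not tested. No cell barcode was shared within a cartridge, while 37 were shared between cartridges, 2 of them involving a Treg cell.

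Tags 1 to 4 held 14, 11, 67 and 33 Treg cells, 25 in the no-anti-PD-1 pool and 100 in the anti-PD-1 pool. Foxp3 (chrX:7573644-7595245 in GRCm38, GENCODE M21, plus strand, 14 exons) was seen in 209 cells of the series, and 84 of these failed a gate. Of the failing cells 32 held a Cd8a or Cd8b1 molecule, 27 held more than 1 C1q molecule, 26 passed the S100a8 limit and 8 had no Cd3 molecule, with some failing more than 1 gate. The kept cells held a median of 4 Foxp3 molecules each, from 1 to 34, and 106 of them held at least 2. In cells that should lack the gene, Foxp3 was seen in 0 of 247 C1q-positive cells without Cd3, which at 3 counts allows a share of cells with a molecule of up to 1.21%, and in 5 of 5172 S100a8-high cells without Cd3. Cd4 molecules were found in 108 of the 125 Treg cells, or 86.4%.

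The label was checked against the 3 other markers of the cell type. Ctla4 was seen in 121 of 125 Treg cells, Il2ra in 90 of 125 and Ikzf2, which encodes the transcription factor Helios, in 86 of 125. In the comparison class of 191 Foxp3-negative CD4 T cells (the same gates, at least 1 Cd4 molecule and none of Foxp3) the numbers were 135, 44 and 20. The median Treg cell held 789 molecules and the median Foxp3-negative CD4 T cell 619, so shares were also computed with every cell thinned to 500 molecules, which left out 27 Treg cells and 68 Foxp3-negative cells below that depth. At equal depth the shares were 92.9 against 61.8% for Ctla4, 66.8 against 25.2% for Il2ra and 54.7 against 8.93% for Ikzf2. At the edge of the rule, the 19 Treg cells with a single Foxp3 molecule held Ctla4 in 17, Il2ra in 15 and Ikzf2 in 11 cells.

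Many Treg cells also held molecules that T cells are not known to make. Over the monocyte genes Cd14 and Lyz2, the B cell receptor genes Cd79a and Cd79b and the neutrophil chemokine receptor gene Cxcr2, 45 of the 125 cells held 2 or more molecules: 5, 6, 23 and 11 cells in tags 1 to 4. These 45 cells held 62.0% of all Treg molecules, and 69.6, 73.1, 61.0 and 51.3% in tags 1 to 4. Their median total was 1579 molecules against 643 in the other 80. Cd14 was seen in 52 Treg cells, Lyz2 in 31, Cd79b in 9, Cxcr2 in 7 and Cd79a in 2. Cells with 2 or more such molecules made up 44 of the 191 Foxp3-negative CD4 T cells with 34.0% of their molecules, and 87 of 268 CD8 T cells with 44.2%. Over 7 macrophage and monocyte markers the summed level in Treg cells was 2456, 31835, 14918 and 20809 counts per 1000000 panel molecules (CPM) in tags 1 to 4, against 16004, 3457, 7529 and 4663 in the Foxp3-negative class, and of the markers C1qa, which the rule limits, was at 0 in Treg cells. Cd14 and Lyz2, which chose the 45 cells, are 2 of the 7 markers. Over 4 neutrophil markers, among them S100a8, which the rule limits, and Cxcr2, the sum was 23294, 17894, 11323 and 16471 CPM in Treg cells against 34638, 12715, 17514 and 13340 CPM, and 7127, 10028, 8240.1 and 5985 CPM in Treg cells without the 45, so the other 80 cells were not free of neutrophil transcripts. Over 7 dendritic cell markers, Ccr7 among them, it was 7615, 34289, 16778 and 15774 against 9167, 56910.1, 9193 and 11391 CPM, and 6993, 14598, 5415 and 6886 CPM without the 45 cells. Over 6 T cell markers, Cd4 and the Cd3 genes of the rule among them, Treg cells had 25545.5, 18985, 28538 and 34776 CPM in tags 1 to 4. The Foxp3-negative class had 48463, 44503, 42627 and 37038.5 CPM, and Treg cells without the 45 had 45992.5, 44808, 46410 and 47036 CPM. Medians of gene lists below include the 45 cells, and how far these cells moved them was not tested. No doublet caller was applied, and the part of cell doublets or free RNA in these counts was not tested. Calls that were lost without these cells are named below.

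**Figure D1:**
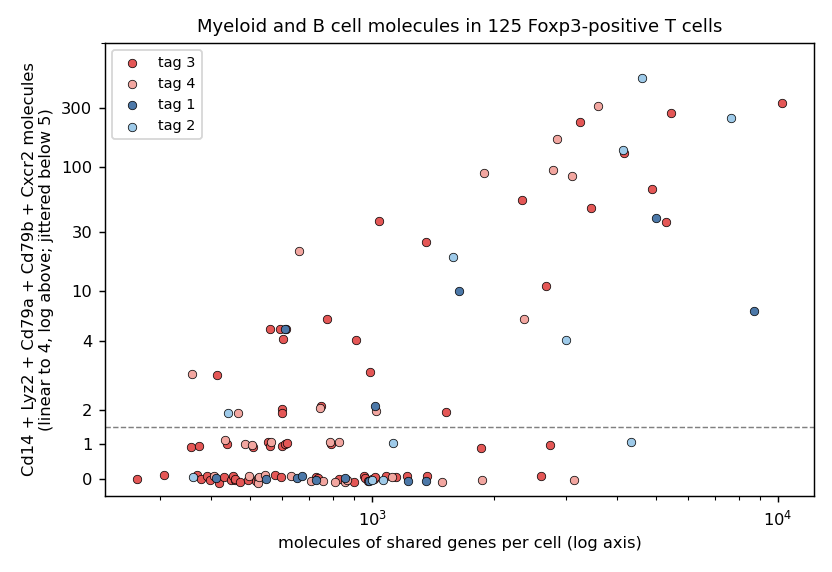
Each of the 125 points is a Treg cell, with its molecules of shared genes on a log axis (x) and its molecules summed over Cd14, Lyz2, Cd79a, Cd79b and Cxcr2 (y, linear to 4 and log above, jittered below 5), coloured by tag. The 45 cells above the dashed line hold 2 or more such molecules and include most of the cells with the highest totals.

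Treg cells took a larger share of all cells in the anti-PD-1 pool. The shares of all cells were 0.576% (14 of 2430 cells, 95% interval 0.315 to 0.965%) in tag 1, 0.726% (11 of 1515 cells, 95% interval 0.363 to 1.30%) in tag 2, 1.01% (67 of 6620 cells, 95% interval 0.785 to 1.28%) in tag 3 and 2.27% (33 cells, 95% interval 1.57 to 3.17%) in tag 4. Both tags of the anti-PD-1 pool lay above both tags of the other pool. The intervals of tags 1, 2 and 3 overlapped, and that of tag 4 lay above them. This order depends on the gates: of the cells with Foxp3, 8 of 27, 9 of 25, 4 of 100 and 6 of 57 in tags 1 to 4 exceeded the C1q limit. With all cells that held Foxp3 counted, gated or not, the share of tag 2 lay above that of tag 3. The mean of the tag shares was 0.651% in the no-anti-PD-1 pool and 1.64% in the anti-PD-1 pool, a ratio of 2.52 that came to 1.55 without tag 4. This denominator holds tumour cells and neutrophils, whose numbers were partly set by the cell mixing.

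Among T cells without CD8 molecules, the order of the tags was the same but the span smaller. Treg cells were 14.9% (14 of 94 cells, 95% interval 8.39 to 23.7%), 17.5% (11 of 63 cells, 95% interval 9.05 to 29.1%), 19.6% (67 of 341 cells, 95% interval 15.6 to 24.3%) and 29.5% (33 of 112 cells, 95% interval 21.2 to 38.8%) in tags 1 to 4. The pool means were 16.2 and 24.6%, a ratio of 1.52, and the intervals of all 4 tags overlapped.

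Relative to CD8 T cells the order of the pools was turned. With CD8 T cells counted by the same gates, at least 1 CD8 molecule and no Cd4 molecule, there were 73.7, 68.8, 41.9 and 45.2 Treg cells per 100 CD8 T cells in tags 1 to 4. The pool means were 71.2 without and 43.5 with anti-PD-1, a ratio of 0.611. As shares of Treg plus CD8 T cells, the values had overlapping 95% intervals in all 4 tags. Among Treg plus Foxp3-negative CD4 T cells the pool means were 41.1 and 43.0%, a ratio of 1.05.

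**Figure D2:**
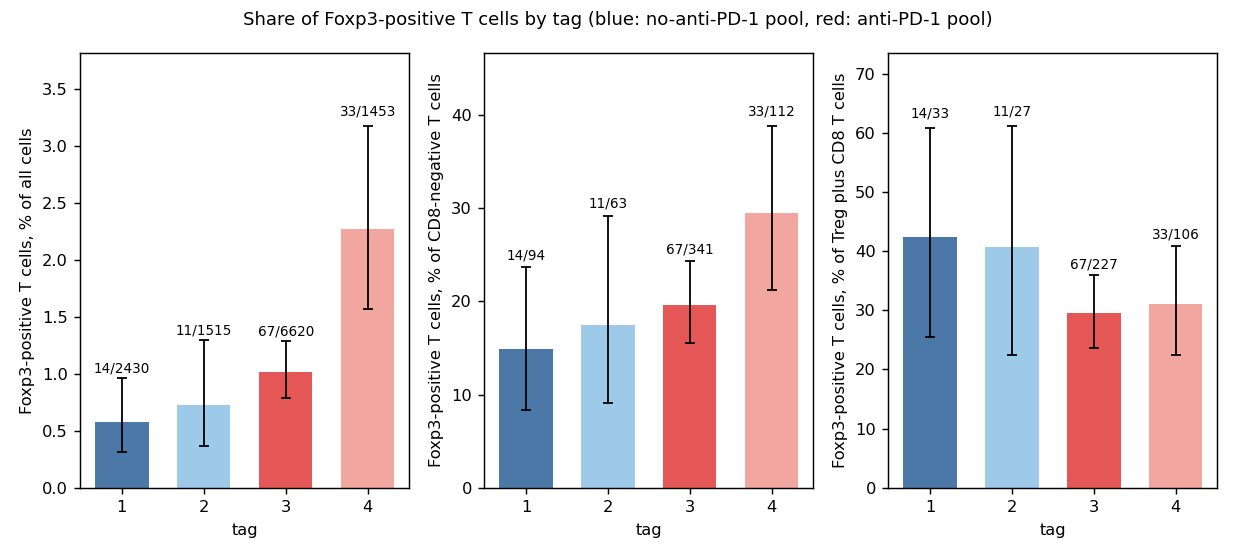
Bars give the Treg share in each tag (y, percent) of all cells, of CD8-negative T cells and of Treg plus CD8 T cells, with exact Clopper-Pearson 95% intervals and the cell numbers above; blue tags belong to the no-anti-PD-1 pool and red tags to the anti-PD-1 pool. The share of all cells runs from 0.576% in tag 1 to 2.27% in tag 4, while the share among Treg plus CD8 T cells is higher in tags 1 and 2.

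Compared with Foxp3-negative CD4 T cells, Treg cells had more transcripts of the integrin gene Itgae, the granzyme gene Gzmb, Ikzf2, the inhibitory lectin receptor gene Klrg1 and the costimulatory receptor gene Tnfrsf9 in every tag. They had fewer of Tcf7, Tnfsf8, Bcl2, Ifng and Cxcr6. Molecules were summed per tag and class and scaled to CPM, and a gene was called where it was at least 1.5-fold apart in the same direction in each of the 4 tags, with at least 30 molecules over both classes and the rule's genes left out. Of 276 genes tested, 12 (4.35%) were called higher and 25 (9.06%) lower in Treg cells, and the median log2 ratio over all of them was -0.0035. The counts and medians of gene lists below are to be read beside these shares and this median. TMM scaling, which centres the bulk of genes, moved that median to 0.18 and gave 15 higher and 18 lower. With tag 1 left out, so that only 3 tags had to agree, 35 genes were called higher. The 5 higher and 5 lower genes named first were called under all 14 alternatives that changed the gates, the cells kept, the tags or the scaling. At a 2-fold limit Ikzf2 and Tnfrsf9 lost the call and the other 8 kept it. Without the cells that held other-lineage molecules, 10 of the 25 lower calls were kept. Those lost were Bin2, Btg1, Ccl5, Cd28, Cd69, Dpp4, Fasl, Il12rb2, Il18rap, Il6ra, Il7r, Lat, Oas2, Pik3ip1 and Stat4.

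**Figure D3:**
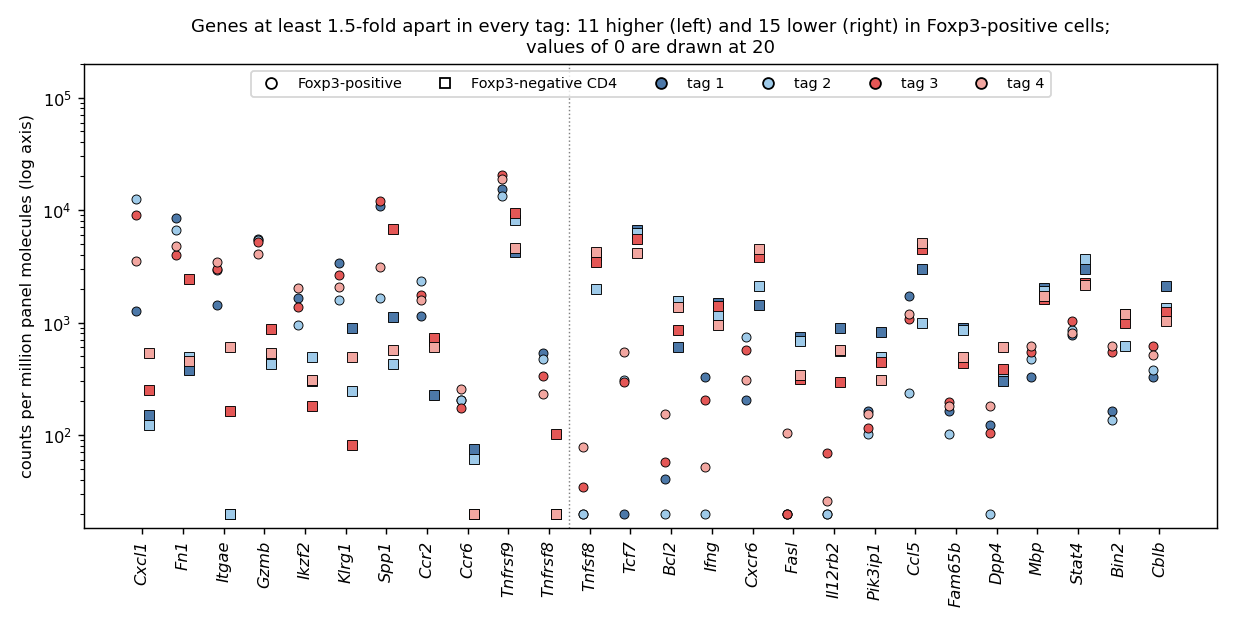
Points give the level of each gene in Treg cells (circles) and Foxp3-negative CD4 T cells (squares) by tag, in CPM on a log axis, for 11 genes called higher (left of the dotted line) and 15 of those called lower with the lowest median ratios; values of 0 are drawn at 20. Itgae, Gzmb, Ikzf2, Klrg1 and Tnfrsf9 keep circles and squares apart, while Spp1 overlaps between the classes.

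Among the Treg identity genes, Itgae and Ikzf2 were called higher. Itgae (chr11:73090583-73147446), the alpha E chain of an integrin that binds E-cadherin, stood at 1433, 2931, 2963 and 3459 CPM in Treg cells and at 0, 0, 162 and 612 CPM in Foxp3-negative CD4 T cells of tags 1 to 4. All Treg tags lay above all comparison tags, at least 6.36-fold and at least 15.8-fold in tags 1 and 2, where the comparison class had no molecule and took a floor of 3 counts per tag, and 18.2-fold and 5.66-fold in tags 3 and 4. Ikzf2 (chr1:69531214-69687245) stood at 1638, 954, 1367 and 2014 against 301, 494, 183 and 306 CPM, 1.93 to 7.48-fold higher. Its lowest Treg tag, tag 2, still lay above the highest comparison tag, which was also tag 2.

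The other identity genes did not reach the call in every tag. Ctla4 stood at 20551, 12066, 17054 and 19466 CPM in Treg cells against 3907, 10740.1, 7833 and 6269, with the classes less than 1.5-fold apart in tag 2. Without the cells that held other-lineage molecules its Treg level was 36713, 31226, 27987 and 22671 CPM against 5374, 7549, 10228 and 8041, and it was then called higher. Il2ra stood at 3807, 6169, 2986 and 3640.2 against 1352, 1111, 2059.8 and 1185 CPM and missed the call in tag 3 at 1.45-fold. Lrrc32, which encodes the TGF-beta docking receptor GARP, was at 614, 443, 804 and 1239 against 827, 123, 122 and 0 CPM, below the comparison class in tag 1 and above it elsewhere. Of the 8 identity genes in the panel 7 were tested, 2 called higher and none lower, with a median log2 ratio of 1.56.

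Of 9 costimulatory receptors tested, 2 were called higher and 1 lower, with a median log2 ratio of 0.41. Tnfrsf9, which encodes 4-1BB, stood at 15393, 13395, 20384 and 19027 CPM in Treg cells against 4208, 8086, 9366 and 4587 CPM, 1.66 to 4.15-fold higher with no overlap between the classes. Tnfrsf8, which encodes CD30, stood at 532, 477, 333 and 232 against 0, 0, 101 and 0 CPM; the comparison class had molecules in tag 3 alone. Tnfrsf8 lost its call without the cells with other-lineage molecules, at 941, 1650.2, 383 and 159 against 0, 0, 75.9 and 0 CPM. Cd28, the receptor of the first costimulatory signal, was lower at 1842, 852, 1837 and 2220.3 against 4283, 4506, 3886 and 4472 CPM, 2.01 to 5.29-fold. Cd28 also lost its call without those cells, at 3765, 1142, 3119 and 3231 against 5112, 5509, 4613 and 4944 CPM, and both genes lost it without cells of 2000 or more molecules and with the mean of cell fractions. The abundant members Tnfrsf18, Icos and Tnfrsf4 did not pass the call: Tnfrsf18 at 6408 to 13889.6 against 5786 to 8638, Icos at 5624 to 8843 against 4658 to 6307 and Tnfrsf4 at 5897 to 9211 against 5275 to 5864 CPM. Icos was called higher once the cells with other-lineage molecules were left out, at 15196, 12186, 11919 and 9905 against 5374, 5305, 7769.9 and 6357 CPM.

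None of the 7 inhibitory receptors tested was called in either direction, with a median log2 ratio of -0.72. Tigit, an inhibitory receptor of activated and regulatory T cells, stood at 5445, 5181, 6569 and 9243 against 3005, 3950.4, 2841 and 2676 CPM, above in every tag but only 1.31-fold in tag 2. Tigit and Ctla4, also on this list, were both called higher without the cells with other-lineage molecules. Both were also called higher without cells of 2000 or more molecules, without the 5% of cells with the most molecules, with tag 2 left out and with the mean of cell fractions. Pdcd1 was at 737, 716, 1298 and 1833 against 1052, 1913, 2973 and 3746 CPM, lower in every tag but by less than 1.5-fold in tag 1. It was called lower with no C1q molecule allowed, with the S100a8 limit at 0.05 and with tag 1 left out. The inhibitory receptor gene Btla was called lower with tag 2 left out. CD8 T cells had 8249.6, 5905, 6438 and 7003 CPM of Pdcd1. Cd5 lay at 2293, 3443, 4766 and 4854 against 6011, 7160.1, 6189.6 and 5237 CPM. Lag3 gave 1 molecule in all Treg cells and was seen in 2 of 268 CD8 T cells and 0 of 191 Foxp3-negative CD4 T cells. No level could be read for it in any of these classes.

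Klrg1 (chr6:122270596-122282882), an inhibitory receptor of differentiated lymphocytes that was on none of the lists, stood at 3398, 1602, 2653 and 2065 CPM in Treg cells against 902, 247, 81.2 and 497 CPM, 3.77 to 32.7-fold higher. All Treg tags lay above the highest comparison tag, tag 1. It was seen in 51 Treg cells, and at equal depth in 40.1% of them against 5.12% of Foxp3-negative CD4 T cells and 2.23% of CD8 T cells.

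Chemokine and homing receptors held calls in both directions. Of 14 tested, 4 were called higher and 1 lower, with a median log2 ratio of -0.22. Over all 276 genes, 4.35% were called higher and 9.06% lower. Ccr2, a receptor for inflammatory CC chemokines, stood at 1146, 2352, 1757 and 1601 CPM against 225, 679, 731 and 612. Ccr6, the receptor for CCL20, was at 205, 205, 172 and 258 against 75.1, 61.7, 0 and 0 CPM, from 5, 6, 15 and 10 Treg molecules in tags 1 to 4. In both the lowest Treg tag lay above the highest comparison tag. Without the cells with other-lineage molecules Ccr2 and Ccr6 lost the call, with Ccr2 at 3362, 1142, 2766 and 1165 against 262, 510.1, 774 and 869 CPM. Ccr6 was then at 672, 254, 265 and 265 against 131, 0, 0 and 0 CPM, still higher in every tag but with fewer than 30 molecules.

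Cxcr6, the receptor for CXCL16, was lower in Treg cells, at 205, 749.9, 574 and 309.8 against 1428, 2099, 3836 and 4510.4 CPM, and CD8 T cells had 6649.7, 4756, 6646 and 6952 CPM. The Treg level was 2.80 to 14.6-fold below the Foxp3-negative class with no overlap. Ccr8, a receptor known from tumour Treg cells, was at 655, 545, 620.1 and 723 against 75.1, 123, 335 and 1261 CPM: higher in tags 1 to 3 and lower in tag 4. At equal depth Ccr8 was seen in 27.0% of Treg cells, 12.9% of Foxp3-negative CD4 T cells and 1.94% of CD8 T cells. The abundant members without a call were Cxcr4 at 2825 to 5616 against 6636 to 9899.9, Ccr7 at 2848 to 6550.1 against 7138 to 13024 and Ccr1 at 1550.3 to 5079 against 1419.7 to 6612 CPM. Of the Ccr1 molecules, 94% came from the 45 cells with other-lineage molecules.

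Gzmb was the only one of 8 suppressive effectors and enzymes tested that was called, with a median log2 ratio of 0.22 over the list. Gzmb (chr14:56258838-56262260), the serine protease granzyme B, stood at 5568, 5419, 5214 and 4105 CPM in Treg cells and 451, 432, 873 and 535 CPM in Foxp3-negative CD4 T cells, 5.97 to 12.5-fold higher. The Treg tags were close to each other, and none overlapped the comparison class. CD8 T cells had more, at 25749, 58472, 19339 and 20474 CPM, and Gzmb was called lower in Treg cells against them. Il10, the gene of an anti-inflammatory cytokine, stood at 328, 409, 1206 and 2065 against 751, 123, 1471 and 76.4 CPM, higher in tags 2 and 4 and lower in tags 1 and 3. The ectonucleotidase genes Entpd1 and Nt5e, whose products make adenosine, were not called: Entpd1 at 648 to 1756 against 556 to 1954 and Nt5e at 614 to 1924 against 1352 to 1887 CPM. The galectin genes were not called either, with Lgals1 at 21439 to 88017 against 17962 to 36235 and Lgals3 at 4872 to 11013 against 3325 to 8265 CPM. Tgfb1 gave 3 molecules and Prf1, the gene of perforin, gave 2 in all Treg cells, so no level could be read for them.

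Of 9 cytotoxic genes tested, Gzmb was called higher, Ccl5 and Fasl lower, and the median log2 ratio was -0.77. Ccl5, a chemokine of effector T cells, stood at 1719, 239, 1079 and 1188 against 3005, 988, 4515 and 5122 CPM, and at 19474, 14490.4, 51833 and 25174 CPM in CD8 T cells. Ccl5 lost its call under 5 of the 14 alternatives. Fasl, the gene of Fas ligand, gave 4 Treg molecules, all in tag 4, against 751, 679, 315 and 344 CPM in the comparison class. Once the cells with other-lineage molecules were left out, Fasl was at 0, 0, 0 and 212 against 1179.7, 918, 364 and 272 CPM and lost its call. Nkg7, a granule protein gene, was at 164, 375, 2354 and 4027 against 4057, 432, 4109.5 and 3593 CPM, and Lamp1 at 4462, 3579, 3250.0 and 2659 against 3531, 2592, 2587 and 1452.5 CPM, higher in all 4 tags but by less than 1.5-fold in tags 1 to 3.

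Genes of naive and memory T cells were lower or not called. Of 9 tested, 4 were called lower, none higher, and the median log2 ratio was -1.16. Tcf7 (chr11:52252371-52283014), the gene of the transcription factor TCF-1, stood at 0, 307, 298.6 and 542 CPM in Treg cells against 6612, 6234, 5571 and 4166 CPM. Treg cells of tag 1 had no molecule, at least 53.8-fold below the comparison class at a floor of 3 counts, and the other tags lay 7.68 to 20.3-fold below. At equal depth Tcf7 was seen in 7.70% of Treg cells and 65.5% of Foxp3-negative CD4 T cells.

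Bcl2, an anti-apoptotic gene, gave 1, 0, 5 and 6 Treg molecules in tags 1 to 4, or 40.9, 0, 57.4 and 155 CPM, against 601, 1543, 852 and 1376 CPM. Il7r, the IL-7 receptor gene, was at 1105, 1397, 1631 and 1033 against 2705, 2654, 2527 and 2293 CPM, and the early activation gene Cd69 at 5281, 4499, 5558 and 5860.5 against 9167, 12777, 11902 and 9709 CPM. All 3 were lower in every tag, but Il7r lost its call under 3 and Cd69 under 6 of the 14 alternatives, the removal of cells with other-lineage molecules among them. Ccr7 was below the comparison class in every tag but by less than 1.5-fold in tag 1, and Cd44 was not called, with Cd44 at 3066 to 4397 against 3075 to 4197 CPM.

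Effector cytokine genes included 3 lower and no higher call among 13 tested, with a median log2 ratio of -1.43. Ifng, the gene of interferon gamma, gave 8, 0, 18 and 2 Treg molecules, or 328, 0, 207 and 51.6 CPM, against 1503, 1173, 1400.3 and 956 CPM in Foxp3-negative CD4 T cells and 4299.8, 2585, 2769 and 3903 CPM in CD8 T cells. The classes did not overlap. Fasl and Ccl5, described above, were the other calls. Tnfsf8, the gene of the CD30 ligand, which was on no list, gave 6 molecules in all Treg cells, or 0, 0, 34.5 and 77.5 CPM, against 3982, 1975, 3450.0 and 4243 CPM; it was seen in 5 of 125 Treg cells and 90 of 191 Foxp3-negative CD4 T cells. Il2 gave no Treg molecule and 1 in the comparison class. The Il4 and Il13 molecules of Treg cells came from 1 cell each, in tag 2. Ccl3 at 1988 to 23484, Ccl4 at 655 to 9203 and Tnf at 573 to 2795 CPM in Treg cells were not called, and 98.2, 99.2 and 87.9% of their molecules were in the cells with other-lineage molecules.

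Of 8 other cytokine receptors tested, Il12rb2, Il18rap and Il6ra were lower (median log2 ratio -0.64), and of 5 receptors of the IL-2 family Il7r alone was called (median 0.19). Il12rb2, an IL-12 receptor chain, gave 7 Treg molecules against 902, 556, 294 and 573 CPM in the comparison class. Il18rap, an IL-18 receptor chain, was at 287, 443, 425 and 568 against 977, 1049, 781 and 1070.2 CPM, and Il6ra at 614, 545, 517 and 542 against 977, 988, 913 and 917. All 3 lost the call without the cells with other-lineage molecules, with Il18rap at 0, 762, 559 and 900.5 against 786, 1734, 819 and 924 CPM. The abundant uncalled receptors were Ifngr1 at 2965 to 8623 against 6574 to 9444, Il1r2 at 2859.5 to 6681 against 2592 to 13252, Il1rl1 at 886 to 2768 against 1202 to 3784, Il2rb at 2318 to 7048 against 3456 to 6419 and Il4ra at 2006 to 3652 against 3744 to 6612 CPM. Il1rl1 encodes the IL-33 receptor ST2. At equal depth it was seen in 45.5% of Treg cells, 33.7% of Foxp3-negative CD4 T cells and 2.12% of CD8 T cells.

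Of 21 transcription factors tested, Ikzf2 was higher and Tcf7 and Stat4 were lower, with a median log2 ratio of -0.61. These counts lie near the shares over all 276 genes, 4.35% higher and 9.06% lower. Stat4, which acts after the IL-12 receptor, stood at 778, 852, 1022 and 800.3 against 3005, 3703, 2263 and 2179 CPM, 2.21 to 4.35-fold lower. It lost its call without the cells with other-lineage molecules, at 1479, 1015, 1825 and 1165 against 3408, 4081, 2610.2 and 1576 CPM, and with the mean of cell fractions. The abundant factors without a call were Hif1a at 8147 to 10327 against a highest comparison level of 16912 and Stat3 at 3511 to 5527 against 5237 to 10068 CPM. The factors of the helper lineages were not called either, with Gata3 at 390.5 to 1269 against 726 to 1428 and Tbx21 at 68.2 to 800.3 against 75.1 to 649.8 CPM.

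Of 13 T cell receptor signalling genes tested, 3 were lower, Lat and Cblb among them, and none higher, with a median log2 ratio of -0.72. The sum of the 6 T cell markers given above was lower in Treg cells in every tag, and is a description only. It holds the Cd3 genes of the rule and Cd4, which was required in the comparison class alone. Leaving out the Treg cells with other-lineage molecules gave 45992.5, 44808, 46410 and 47036 CPM, by tag. The comparison class with all its cells had 48463, 44503, 42627 and 37038.5 CPM. Its sum without such cells is not given. Cblb, a ubiquitin ligase that limits T cell activation, stood at 328, 375, 620.1 and 516 against 2104, 1358, 1238 and 1032, and Lat, an adaptor, at 5240.1, 3238, 4812 and 5422 against 11571, 12036, 8919 and 8218 CPM. Without the cells with other-lineage molecules Cblb kept its call, while Lat, at 9683, 9139, 7916 and 6621 against 13632, 15201, 10911 and 8693 CPM, lost it. The uncalled abundant genes were Trbc2 at 6306 to 9375 against 8753 to 18147, Cd2 at 5794 to 10378 against 6086 to 9135, Ptprc at 5076 to 7719 against 9444 to 11421 and Lck at 4158 to 7461 against 6940.5 to 7839 CPM.

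In the remaining lists, activation and immediate early genes had Cd69 lower among 11 tested (median -0.44), and survival genes had Bcl2 and Fasl lower among 7 (median -0.16). Interferon response genes had no call among 4 (median 0.03), stress, iron and hypoxia genes none among 5 (median 0.32), and proliferation genes none among 7 (median 0.66). Their abundant members were Bcl2a1a at 4913 to 10692 against 13475 to 18764, Fosb at 3020.3 to 22721 against 9814 to 19991, Dusp1 at 4008 to 6182 against 3982 to 7262, Birc3 at 1228 to 2181 against 1309 to 2099 and Bax at 1148 to 1474 against 1070.2 to 1428 CPM. The interferon and stress lists gave Cd274 at 1842 to 4295 against 3176 to 4658, Irf7 at 901 to 3749 against 902 to 2293, Cxcl10 at 368 to 2693 against 75.1 to 802, Fth1 at 76110.3 to 82409 against 43454 to 79466 and Hmox1 at 3072 to 5156 against 432 to 4433 CPM.

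Cycling was read from cells with molecules of 2 or more of the genes Mki67, Top2a, Ube2c, Aurkb and Tyms. Such cells made up 3, 1, 9 and 6 of the Treg cells in tags 1 to 4, or 15.2% in all, against 8.38% of Foxp3-negative CD4 T cells and 37.3% of CD8 T cells. Cells with these genes were deeper, with medians of 1302 to 4330 molecules per tag against 602.5 to 1351.5 in the other Treg cells. Thinned to 500 molecules, Mki67 was seen in 19.1% of Treg cells, 10.7% of Foxp3-negative CD4 T cells and 22.3% of CD8 T cells. For Top2a the shares were 19.0, 19.9 and 27.6%, so Treg cells lay above Foxp3-negative CD4 T cells for Mki67 but not for Top2a. The summed levels were Pcna at 1470.0 to 6018 against 2324 to 3271, Top2a at 1057 to 2590.4 against 225 to 1108, Mki67 at 942 to 1317 against 150.3 to 879 and Mcm4 at 620.1 to 3234 against 617 to 1441 CPM, and none of the 4 was called.

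Cxcl1, Fn1 and Spp1, the other genes called higher, are known from myeloid and stromal cells. Cxcl1 stood at 1269, 12645, 9061 and 3511 CPM in Treg cells against 150.3, 123, 254 and 535, Fn1 at 8474, 6681, 3950.5 and 4750.4 against 376, 494, 2435 and 459 and Spp1 at 10808, 1636, 12001 and 3124 against 1127, 432, 6758 and 573. Of their Treg molecules 99.4, 96.5 and 93.6% were in the 45 cells with other-lineage molecules. Without those cells Cxcl1 was at 269, 508, 29.4 and 53.0 against 262, 102, 60.7 and 0 CPM, and none of the 3 was called. Of the 12 genes called higher, 6 were still called without those cells (Gzmb, Ikzf2, Itgae, Klrg1 and Tnfrsf9 among them), and 7 others were added: Cd27, Cst7, Ctla4, Icos, Ighm, Igkc and Tigit.

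The targets with the most molecules in Treg cells, by the mean of the tags, were H2-K1, Fth1, Gapdh, Lgals1, Cxcl2, Btg1, Rgs1, S100a10, Ctla4, Tnfrsf9, S100a8, Cd52, Thy1, Cd14 and Tnfrsf18. Primer yield differs between targets, so this order is not an order of transcript levels. Of the Cxcl2 molecules, 98.8% were in the 45 cells with other-lineage molecules, against 38.7% for Ctla4 and 48.1% for Tnfrsf9. Btg1, an antiproliferative gene, was among the 25 lower calls at 22557, 24609, 32017 and 31807 against 56353, 54626, 49233 and 53322 CPM; without those cells it was at 37386, 22214, 37669 and 35065 against 70389, 61722, 55709.8 and 51236 CPM and lost the call. The lower calls not described above included Bin2, Dpp4, Fam65b, Ikbkb, Mbp, Oas2 and Pik3ip1.

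Against CD8 T cells, 31 of 292 genes (10.6%) were called higher in Treg cells and 29 (9.93%) lower. Of the 12 genes higher than in Foxp3-negative CD4 T cells, Itgae, Ikzf2, Klrg1, Tnfrsf9, Tnfrsf8, Ccr2 and Ccr6 were also higher than in CD8 T cells. Itgae stood at 275, 128, 371 and 559 CPM in CD8 T cells, Ikzf2 at 175, 255, 335 and 330.2 and Klrg1 at 275, 63.8, 40.6 and 93.1. Tcf7, Bcl2, Ifng and Cxcr6 were lower than in CD8 T cells as well, and Tnfsf8, scarce in both, was not called. Tnfrsf4, Il2ra, Ctla4, Icos, Tigit, Lrrc32 and Ccr8 were called higher against CD8 T cells but not against Foxp3-negative CD4 T cells; for Ccr8 the CD8 level was 0, 0, 61.0 and 16.9 CPM.

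The 72 further genes, counted in tags 2 to 4 alone, held 42 with at least 30 molecules over Treg and Foxp3-negative CD4 T cells. Of these, 5 (11.9%) were called higher in Treg cells and 4 (9.52%) lower. Cd40lg, the gene of the CD40 ligand of helper T cells, stood at 0, 45.9 and 0 CPM in Treg cells of tags 2 to 4 against 1790.0, 731 and 1185 CPM. Itgb3, an integrin chain gene, was at 375, 632 and 852 against 2778, 1015 and 1644 CPM, and Slfn1 at 1023, 528 and 775 against 3086, 1908 and 1261; Ifit2 was the remaining lower call. The higher calls were Cxcl3, Nos2, Cd68, Cfb and Msr1, genes known from myeloid cells, with 96.7 to 100% of their Treg molecules in cells with other-lineage molecules. The most abundant of these genes in Treg cells were Nfkbia, Crip1, S100a4, Nfkbiz, Cxcl3, Ccrl2, Cd164 and Cd83. Nfkbia, the NF-kappaB inhibitor gene, was at 19701, 23749 and 22590 against 29319, 26453 and 31496 CPM and Crip1 at 14486, 15170.3 and 23287 against 36356, 20202 and 31152 CPM, without a call.

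**Figure D4:**
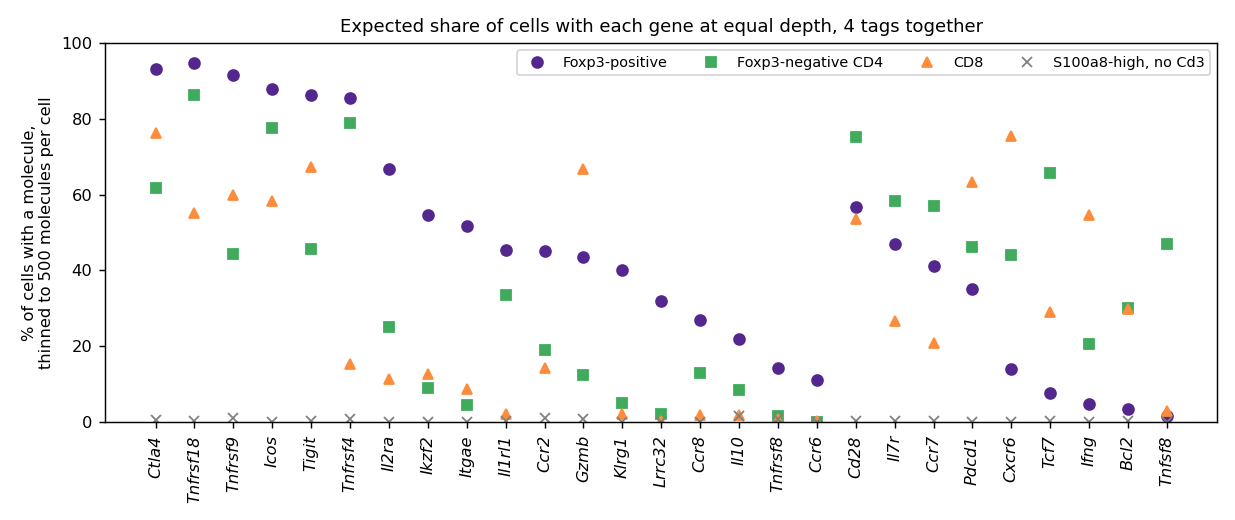
Points give the expected share of cells (y, percent) in which each gene would be seen with every cell thinned to 500 molecules, in Treg cells, Foxp3-negative CD4 T cells, CD8 T cells and S100a8-high cells without Cd3, tags together. Klrg1, Itgae, Ikzf2 and Lrrc32 lie between 32.1 and 54.7% in Treg cells and at most 12.6% in the other classes, and the S100a8-high cells stay at or below 1.72% for the genes drawn.

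Within the Treg cells, Gzmb was seen in 47 of the 74 cells with Itgae and in 16 of the 51 without it. Il1rl1 was seen in 35 of the 51 cells with Klrg1 and in 27 of the 74 without it, and Gzmb in 33 and 30 of these. Itgae was seen in 56 of 86 cells with Ikzf2 and 18 of 39 without, and in 35 of 50 cells with Ccr8 and 39 of 75 without. Klrg1 was seen in 21 of the 35 cells with Il10 and 30 of the 90 without. Ccr7 was seen in 41 of the 74 cells with Itgae and 17 of the 51 without. Other pairs of these genes went together less or not at all. Itgae was seen in 21 of the 35 cells with Il10 and 53 of the 90 without. For Ccr7 it was 24 of the 51 cells with Klrg1 and 34 of the 74 without. Cells with these genes were deeper: the median total was 820 molecules with Itgae and 672 without, 1001 with Klrg1 and 613 without, and 1122.5 with Ccr8 and 601 without. The part of depth in these overlaps was not tested.

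Between the pools, Treg cells of the anti-PD-1 tags had more transcripts of the chemokine receptor gene Cxcr3, the cathepsin W gene Ctsw, Nkg7, Il10 and Bin2. A gene was called where both tags of one pool lay above both tags of the other, the closest pair of tags across pools differed by 1.5-fold or more and at least 30 molecules were counted over the 4 tags. Of 247 genes tested, 21 (8.5%) were called higher and 13 (5.26%) lower in the anti-PD-1 pool. The comparison sets 25 cells against 100, and the Treg cells of tags 1 and 2 were deeper, with median totals of 918 and 1579 molecules against 726 and 758. Leaving out tag 1, 2 or 3 gave 45, 76 or 37 genes called higher, and leaving out tag 1, 2 or 4 gave 48, 38 or 22 called lower, since fewer tags then had to agree. Bin2, Ctsw and Cxcr3 were called under all 14 alternatives to the gates, cells, tags and scaling, and Il10 and Nkg7 under 13, both lost when cells with 2000 or more molecules were left out. All 5 were called at 2-fold, and Bin2 lacked the molecules for a minimum of 100. Treatment and cartridge cannot be told apart here.

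Cxcr3, the receptor for interferon-induced chemokines, stood at 532, 68.2, 1424 and 1265 CPM in tags 1 to 4, from 13, 2, 124 and 49 molecules in 5, 1, 34 and 21 cells. Tags 3 and 4 were high with overlapping intervals, tag 1 was lower and tag 2 lowest, and the nearest tags were 2.38-fold apart. Foxp3-negative CD4 T cells had 676, 3457, 781 and 1185 CPM, with the highest value in tag 2. Without the cells with other-lineage molecules the Treg levels were 672, 254, 2266 and 1959.8 CPM.

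Ctsw and Nkg7, granule genes of cytotoxic lymphocytes, were high in tags 3 and 4 and low in tags 1 and 2. Ctsw stood at 368, 205, 2228 and 2607.5 CPM, 6.05-fold between the nearest tags, and was seen in 5, 3, 31 and 13 cells. Nkg7 stood at 164, 375, 2354 and 4027 CPM, 6.28-fold between the nearest tags, and was seen in 2, 3, 21 and 12 cells. In CD8 T cells both were higher in all 4 tags, Ctsw at 6525, 7660.1, 7424 and 6359 and Nkg7 at 21024, 19980.2, 27936 and 27569.9 CPM. Gzma went the other way, at 942, 239, 115 and 25.8 CPM, but 51.2% of its 41 molecules came from 1 cell, and Gzmb was not called, with its nearest tags 1.04-fold apart.

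Il10 stood at 328, 409, 1206 and 2065 CPM, from 8, 12, 105 and 80 molecules in 2, 4, 23 and 6 cells, 2.95-fold between the nearest tags. Without the cells with other-lineage molecules it was at 0, 0, 1648 and 900.5 CPM, so tags 1 and 2 then had none. The S100a8-high cells without Cd3 held Il10 in 4.02% and C1q-positive cells in 45.7%. Maf, the gene of a transcription factor known to act on Il10, was also called higher, at 81.9, 136, 287 and 258 CPM from 2, 4, 25 and 10 molecules, and lost the call without the cells with other-lineage molecules.

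Pdcd1, the gene of the antibody's target, stood at 737, 716, 1298 and 1833 CPM in Treg cells, both anti-PD-1 tags above both others and the nearest 1.76-fold apart. Without the cells with other-lineage molecules it was at 1479, 2285, 1413 and 2913 CPM, and the order of the tags was lost. In Foxp3-negative CD4 T cells it was at 1052, 1913, 2973 and 3746 CPM. Il1rl1 at 1146, 886, 2768 and 2091 CPM and the death receptor gene Fas at 491, 409, 1034 and 1058 CPM had the same order and likewise lost the call without those cells, with Il1rl1 then at 3631, 889, 3590.3 and 2595 CPM. The other higher calls included Gimap7, Tyk2, Dock8, Cxcr4, the stress response gene Atf6b, the gamma delta T cell receptor gene Trdc and the myeloid genes below. Without those cells Gimap7 kept its call, while Tyk2, Dock8, Cxcr4, Atf6b and Trdc lost theirs. Trdc was seen in 5 Treg cells.

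Of the 21 genes called higher, Arg1, Thbs1, Ccl2, Trem2 and Itgam are known from myeloid cells. Arg1 stood at 81.9, 136, 19213 and 6067 CPM in Treg cells of tags 1 to 4 and was seen in 18 of them. Between 96.2 and 100% of the molecules of these 5 genes were in the cells with other-lineage molecules, and Arg1 was at 134, 254, 29.4 and 0 CPM without them. Leaving those cells out kept 6 of the 21 higher calls (Bin2, Ctsw, Cxcr3, Gimap7, Il10 and Nkg7) and none of the 13 lower calls. Of 167 genes then tested, 14 were called higher and 9 lower, with Il2ra, Tnfrsf4 and Tnfrsf8 among the lower ones.

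**Figure D5:**
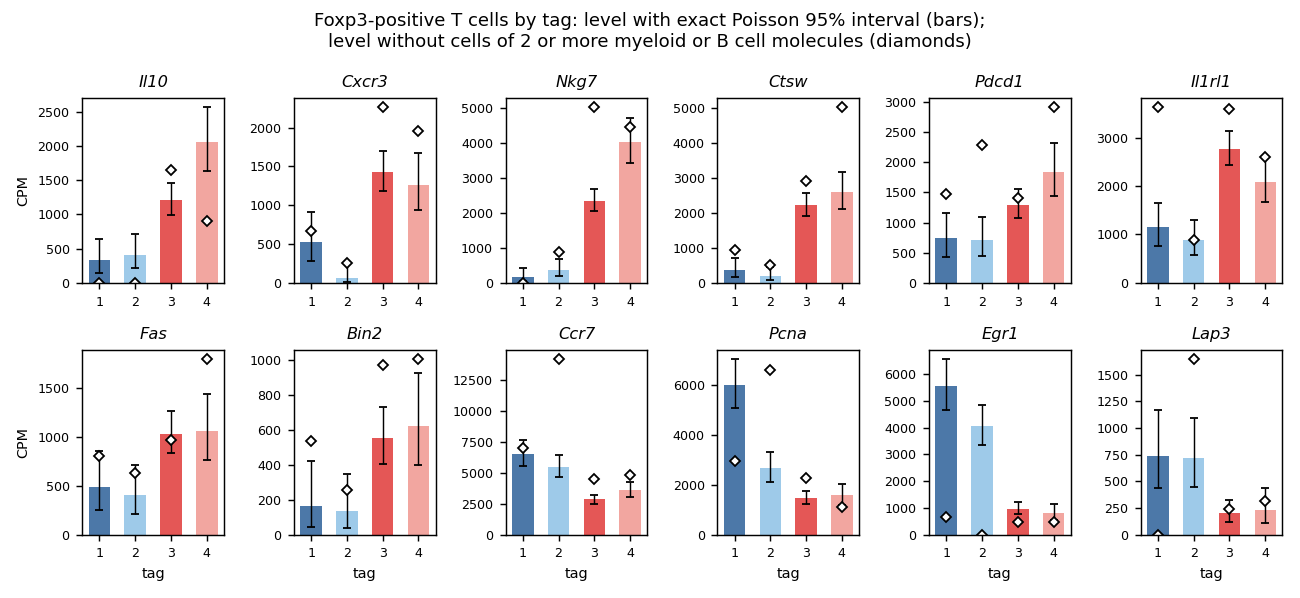
Bars give the level in Treg cells by tag (y, CPM, each panel with its own axis from 0) with exact Poisson 95% intervals, and diamonds the level without cells of 2 or more other-lineage molecules. Cxcr3, Ctsw, Nkg7 and Bin2 are higher in tags 3 and 4 by both measures, while the diamonds of Pdcd1, Il1rl1, Egr1 and Lap3 do not keep the order of the bars.

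Lower in the anti-PD-1 pool were the immediate early gene Egr1, the replication genes Pcna and 2810417H13Rik, the homing receptor gene Ccr7 and 9 others. Over tags 1 and 2, 48.9% of the Pcna and 49.1% of the 2810417H13Rik molecules came from 1 cell each. The shares of cycling Treg cells, 21.4, 9.09, 13.4 and 18.2% in tags 1 to 4, did not follow the pools. Egr1 stood at 5568, 4056, 976 and 800.3 CPM in tags 1 to 4, with 91.9% of its molecules in the cells with other-lineage molecules, and at 672, 0, 471 and 477 CPM without them. Pcna stood at 6018, 2659, 1470.0 and 1575 CPM and Ccr7 at 6550.1, 5488, 2848 and 3614 CPM; without those cells Ccr7 was at 6993, 14217, 4503 and 4820.2 CPM, still higher in tags 1 and 2 but with the nearest tags less than 1.5-fold apart. Ier3 at 10357, 19189.5, 3847 and 4311, Xcl1 at 1023, 2999, 0 and 619.6 and S100a9 at 983, 818, 459 and 465 CPM had 97.9, 82.5 and 91.5% of their molecules in those cells, and Xcl1 was seen in 3 Treg cells. Tmem97 was at 532, 1125, 161 and 155 CPM, Lap3 at 737, 716, 207 and 232 CPM and Ybx3 at 1965, 511, 241 and 258 CPM. Lat2 was at 614, 682, 276 and 309.8 CPM and Il15ra at 737, 648, 413 and 387 CPM.

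With all Treg cells and tags, the marker genes of the cell type showed no call between the pools. Without the cells with other-lineage molecules Il2ra was called lower in the anti-PD-1 pool. It was also called lower with the S100a8 limit at 0.05, with tag 1 left out and with the mean of cell fractions. Ctla4, Ikzf2 and Il2ra had log2 ratios of 0.16, 0.38 and -0.59 for the anti-PD-1 pool over the other. By list, the median log2 ratio was 0.33 for 7 Treg identity genes, 0.93 for 6 inhibitory receptors, 0.39 for 8 costimulatory receptors, 0.57 for 13 T cell receptor signalling genes and -1.14 for 7 proliferation genes, against 0.09 for all 247. The called members of these lists included Pdcd1 and Pcna. The medians include the cells with other-lineage molecules. Those cells held 69.6 and 73.1% of Treg molecules in tags 1 and 2 and 61.0 and 51.3% in tags 3 and 4. Medians without those cells were not computed. Over tags 1 and 2, the proliferation genes Mcm4, Tyms, Ube2c and Pcna had 60.5, 71.0, 83.9 and 48.9% of their molecules in 1 cell each. Of the genes that set Treg cells apart from Foxp3-negative CD4 T cells, Itgae, Klrg1, Gzmb and Tnfrsf9 had log2 ratios between the pools of 0.56, -0.08, -0.24 and 0.45 and no call.

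Between the 2 tags of a cartridge, genes were called at 2-fold with 30 molecules and separate Poisson intervals. In the anti-PD-1 pool, 11 of 221 genes (4.98%) were higher and 14 (6.33%) lower in Treg cells of tag 4 than of tag 3. The costimulatory receptor gene Cd27 stood at 1068 CPM in tag 3 and 2711 in tag 4, Tbx21, the gene of T-bet, at 138 and 800.3, and Gimap7 at 678 and 1601. Prdm1, the gene of Blimp-1, was lower in tag 4, at 232 against 620.1 CPM. Of the 14 lower genes 11 had at least 75% of their molecules in cells with other-lineage molecules, against 2 of the 11 higher ones. In the no-anti-PD-1 pool, 44 of 171 genes (25.7%) were higher and 25 (14.6%) lower in tag 2 than in tag 1. Of the 44, 38 had at least 75% of their molecules in cells with other-lineage molecules, and 23 had at least 50% in 1 cell. These tags hold 11 and 14 Treg cells, tag 1 was counted against another target list, and the arm behind each tag is not given in the sources used here.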

How the data were processed

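Per the file headers, the authors deposited, for each sample tag, molecule counts (unique molecules of each target in each cell, after distribution-based error correction) from the BD Rhapsody Targeted Analysis Pipeline 1.12.1. The submitters' processing notes name Seurat 3.2.0. The aligner and the build were not given in these sources. Tag 1 has 397 targets for 396 genes (the 2 for Tigit were summed) and tags 2 to 4 have 468, so the 396 shared genes were used, and 72 further genes in tags 2 to 4 alone. Treg cells held 24427, 29339, 87078 and 38734 molecules in tags 1 to 4, which limits the precision of low genes.

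Molecules were summed per tag and class and scaled to 1000000 shared-gene molecules (CPM). Pool values are equal-weight means of 2 tags. In ratios, a class without molecules was set to 3 counts per tag and could not be called higher. Shares carry exact Clopper-Pearson and sums exact Poisson 95% intervals, for counting error only. Calls are rules of size, not tests. They were run on simulated Poisson counts without spread between cells, which cannot show how often such spread leads to a call. Software was Python 3.11.15, pandas 2.3.3, scipy 1.17.1 and, for the TMM alternative, edgeR 4.0.16 in R 4.3.3. Coordinates come from GENCODE M21, in which 392 of 397 target transcripts were found.

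The members, the 17 gene lists and the rules were chosen with earlier results of these data known. Named genes were list members with at least 30 Treg molecules that were called or among the 4 most abundant of their list, the 12 furthest higher and 8 furthest lower calls between classes, up to 10 pool calls per direction, the 15 most abundant genes and the 8 most abundant further genes; Klrg1, Tnfsf8 and the other genes outside these sets were named after their values were seen. Alternatives varied the gates, the cells kept, the minimum, the fold, the scaling and the comparison class. Leaving out cells with 2000 or more molecules was added after seeing the data. Some genes that the rule would name are not reported here.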

Additional observations from a re-analysis of the deposited data

How the results depend on the processing

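The ratios of Treg shares between pools kept their direction under every alternative run: 1.55 to 3.49 for all cells, 1.15 to 1.82 for CD8-negative T cells and 0.433 to 0.684 for Treg cells per 100 CD8 T cells. Alternatives to the gates only tightened them, and these ratios were not computed with a gate relaxed. The counts of called genes moved more. Against 12 genes called higher and 25 lower than in Foxp3-negative CD4 T cells, the counts were 7 and 13 at 2-fold, 18 to 35 and 29 to 36 with each tag left out in turn, 15 and 18 under TMM scaling, and 19 higher with the mean of cell fractions. Without cells of 2 or more other-lineage molecules 16 were lower, of which 10 were among the 25, and against CD8 T cells 31 were higher. Against 21 and 13 pool calls, the counts were 13 and 5 at 2-fold and 29 to 76 and 19 to 48 with each tag left out; 7 were lower without cells of 2000 or more molecules and 7 with a minimum of 100 molecules.

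Sign changes were listed only for named genes with a call, and those of genes without a call are not given. Among the called genes, the log2 ratios that changed sign without the cells of other-lineage molecules were those of Cxcl1 (-0.50) and Spp1 (-1.71) between classes. Between pools they were those of Arg1 (-1.04), Ccl2 (-2.47), Ier3 (0.00812), Lat2 (0.35), Thbs1 (-1.67), Trem2 (-1.67) and Xcl1 (0.79). Without cells of 2000 or more molecules they were those of Spp1 (-0.53) between classes and of Ier3 (0.80), Il15ra (0.39), Lap3 (0.60), Lat2 (0.16), Maf (-0.0217) and Trem2 (-0.84) between pools, and with the mean of cell fractions that of Il15ra (0.19). The cause was not tested. No paired analysis was possible because the labels give no replicate numbers and each group is 1 sample. With 11 to 67 Treg cells per tag, genes of few molecules carry wide intervals, and a level of 0 in tags 1 or 2 does not show absence.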
